A study of Rattus norvegicus with 28 samples.

Results

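The gene followed here is Vdr (ENSRNOG00000054420), which encodes the vitamin D receptor, 1 of 32883 genes counted in each of 28 rat muscles. It was chosen by its identifier, and its level was read in all 4 groups of the study and then set against 1872 genes that had a symbol in the study's supplement and enough counts to be tested, out of 1998 with a symbol. Tibialis anterior muscles were taken from both legs of 14 male Wistar rats, 7 in each of 2 arms, which were 8 weeks old before 1 week of acclimatisation. Plasmid or shRNA was delivered by in vivo electrotransfer (IVE), in which electric pulses carry injected material into muscle, and the muscles were collected 10 days later after an overnight fast.

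In the VDR-OE arm (rats 416 to 422), the right leg received a construct encoding the mouse receptor (labelled IVE VDR knock-in, called VDR-OE), and an empty vector went into the left (Sham VDR knock-in, VDR-OE control). In the VDR-KD arm (rats 423 to 429), the right leg received an shRNA against Vdr (IVE VDR knock-out, VDR-KD) and the left leg a scramble shRNA (Sham VDR knock-out, VDR-KD control). All 28 muscles were therefore injected and electrotransferred, and none was left untouched. Transfer reaches only some fibres, so each library mixes fibres with and without the agent with other cells of the muscle, and one count per gene does not separate the construct's transcripts from those of the rat's own gene. The labels and the methods name different plasmid backbones for the construct (pCAGGS and pCMV6). The 3 groups without the construct hold 21 muscles. Genes of the sarcomere, which define skeletal muscle, carried no symbol here, and the tissue label was not checked against them.

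The vitamin D receptor is a nuclear receptor. When it binds calcitriol, the active form of vitamin D, it pairs with a retinoid X receptor and attaches to response elements near its target genes, of which the enzyme that breaks calcitriol down is the best known. It is abundant in gut, kidney and bone, where it serves calcium balance, and scarce in mature skeletal muscle.

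The endogenous gene begins on rat chromosome 7, minus strand. The 250 bases before its RefSeq start (chr7:130916758-130917007, GRCr8) are shown because the levels below come from this gene in 21 muscles. The VDR-OE legs also received the construct, with its own promoter, and their counts do not separate the sources. Capitals mark the GC box GGGCGG, searched on both strands.

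Vdr promoter: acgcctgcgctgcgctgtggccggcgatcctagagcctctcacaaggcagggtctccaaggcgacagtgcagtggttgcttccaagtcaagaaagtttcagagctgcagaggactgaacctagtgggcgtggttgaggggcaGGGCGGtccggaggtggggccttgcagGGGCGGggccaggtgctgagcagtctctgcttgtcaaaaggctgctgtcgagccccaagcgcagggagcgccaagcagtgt

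This stretch holds 2 GC boxes, which 30.5% of 33469 rat promoter windows of the same length hold at least once. G and C make up 63.6% of its bases, against a median of 51.2%. It holds no TATAAA (12.9% of windows do) and no direct repeat of the half-sites AGGTCA or GGTTCA spaced by 3 bases (0.0448% of windows do). These are matches of letters only.

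Endogenous Vdr was a low but countable transcript. In the 21 muscles without the construct, 54 to 418 reads fell on it per library, out of library totals of 36684220 to 45899121 reads. Levels are given as CPM, read counts scaled to the size of each library, after trimmed mean of M-values (TMM) scaling. No pair of muscles within a group matched within sampling noise (the lowest chi-square ratio over genes was 28.5 per degree of freedom), and each muscle was treated as its own sample.

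In VDR-OE control legs, Vdr stood at 1.91 CPM in rat 416, 3.93 in rat 417, 3.90 in rat 418, 5.75 in rat 419, 4.08 in rat 420, 6.73 in rat 421 and 3.47 in rat 422. In VDR-KD control legs it stood at 4.38 CPM in rat 423, 6.72 in rat 424, 8.12 in rat 425, 1.39 in rat 426, 1.89 in rat 427, 3.14 in rat 428 and 3.41 in rat 429. Both sets of control legs covered the same low range, with single rats at either end and no gap between the arms. Mean levels were 4.25 ± 1.57 CPM (SD, n = 7) and 4.15 ± 2.47 CPM (SD, n = 7), which did not differ beyond the spread between muscles. The fitted log2 difference was 0.03 (SE 0.37, edgeR quasi-likelihood adjusted p = 0.969). The difference of mean log2 CPM was 0.18 (exact two-sample permutation test, two-sided p = 0.667). The sign of the small fitted difference turned when rat 419, 421, 426, 427, 428 or 429 was left out.

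Endogenous Vdr varied far more between muscles of different rats than read counting allows. The highest and the lowest muscle of a group differed 3.53-fold in VDR-OE control, 5.85-fold in VDR-KD control and 3.37-fold in VDR-KD muscles. On the log2 scale the SD was 0.58, 0.92 and 0.62 in these groups, against 0.12 to 0.13 from counting alone. Within arms, the SD of log2 Vdr CPM over the 14 control legs was 0.77. It was larger than that of 89% of the 2987 genes with a mean level between 2 and 8 CPM, whose median SD was 0.32.

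No relation was detected between endogenous Vdr and 3 measures of the libraries. Across the 14 control legs, after centring within arm, log2 Vdr CPM had a Pearson r of 0.40 with the total count (permutation p = 0.204, adjusted over 3 measures p = 0.556), with a Spearman rho of 0.34 (permutation p = 0.279, adjusted p = 0.836). Without the legs of rats 425 and 426, which lay farthest from the median of Vdr, r with the total count was 0.0092. With the share of reads taken by the 10 most abundant genes, r was 0.19 (permutation p = 0.495, adjusted p = 0.556) and rho 0.03 (permutation p = 0.914, adjusted p = 0.914), and r without these 2 legs was 0.32. With the TMM factor, r was -0.17 (permutation p = 0.556, adjusted p = 0.556) and rho -0.10 (permutation p = 0.737, adjusted p = 0.914), and r without the same legs was -0.38.

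Vdr was higher in the VDR-OE leg than in the control leg of 6 of 7 rats, by 51.4-fold or more. In VDR-OE legs, Vdr stood at 1986 CPM in rat 416, 3685 in rat 417, 201 in rat 418, 5.45 in rat 419, 2299 in rat 420, 2747 in rat 421 and 5938 in rat 422. The library labelled VDR-OE from rat 419 lay within the control range, and that of rat 418 lay between the control range and the other 5. In rat 419 the 95% Poisson interval of the VDR-OE leg (4.80 to 6.16 CPM) overlapped that of the control leg (4.94 to 6.65 CPM), and the ratio between the legs was 0.948. The other 6 ratios ran from 51.4 in rat 418 to 1707 in rat 422. These intervals cover counting error only.

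Over the 7 rats Vdr was higher in VDR-OE than in control legs by 8.52 on the log2 scale (SE 1.49, edgeR quasi-likelihood adjusted p = 0.0228), in a comparison in which 7.14% of 14526 genes passed the threshold of an adjusted p of 0.05. The mean within-rat log2 ratio was 7.72 ± 3.80 (SD, n = 7), higher in 6 of 7 rats (exact paired permutation test, two-sided p = 0.03125, smallest possible 0.0156). Without rat 419 the fitted difference was 9.15. The call was lost when rat 417, 418, 420 or 421 was left out, with adjusted p of 0.0647 to 0.09 and differences of 8.21 to 9.04.

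Vdr was not shown to be lower in the legs labelled VDR-KD. It stood there at 6.54 CPM in rat 423, 2.12 in rat 424, 2.93 in rat 425, 4.27 in rat 426, 2.59 in rat 427, 1.94 in rat 428 and 2.38 in rat 429. The muscles labelled VDR-KD overlapped their controls throughout the range from 1.94 to 6.54 CPM. Vdr was lower than in the control leg of the same rat in 4 rats (424, 425, 428 and 429) and higher in 3 (423, 426 and 427), with ratios from 0.316 in rat 424 to 3.06 in rat 426.

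The mean level in VDR-KD legs was 3.25 ± 1.64 CPM (SD, n = 7). The fitted difference from the control legs was -0.26 on the log2 scale (SE 0.40, edgeR quasi-likelihood adjusted p = 0.839). The mean within-rat log2 ratio was -0.24 (exact paired permutation test, two-sided p = 0.594). This mean is 0.846-fold as a ratio, with a 95% interval of 0.363-fold to 2.04-fold from the exact permutation test. The interval spans both a fall and a rise. Across all genes, 0 of 14652 (0%) passed the threshold between VDR-KD and control legs with edgeR, and 395 had an unadjusted p under 0.05 (2.7%). The level of the targeted transcript did not separate the legs labelled VDR-KD from their controls.

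The leg difference of Vdr was larger in the VDR-OE arm than in the VDR-KD arm by 7.96 on the log2 scale (exact two-sample permutation test over 7 and 7 rats, two-sided p = 0.00233). Among the 3 groups without the construct, no pair differed beyond the spread between muscles (3 exact permutation tests, adjusted p of 0.628 to 0.667). In order of the median, the groups were VDR-OE at 2299 CPM, VDR-OE control at 3.93, VDR-KD control at 3.41 and VDR-KD at 2.59.

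No relation was detected between the levels in the legs of one rat. In the 7 rats of the VDR-KD arm, log2 Vdr CPM of the left and right leg had a Pearson r of -0.15 (exact permutation p = 0.765) and a Spearman rho of -0.04 (exact permutation p = 0.963). Without the 2 rats whose left legs lay farthest from the median, r was 0.11. The right legs carried an agent aimed at Vdr and the left legs did not, so leg and agent cannot be told apart here.

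**Figure D1:**
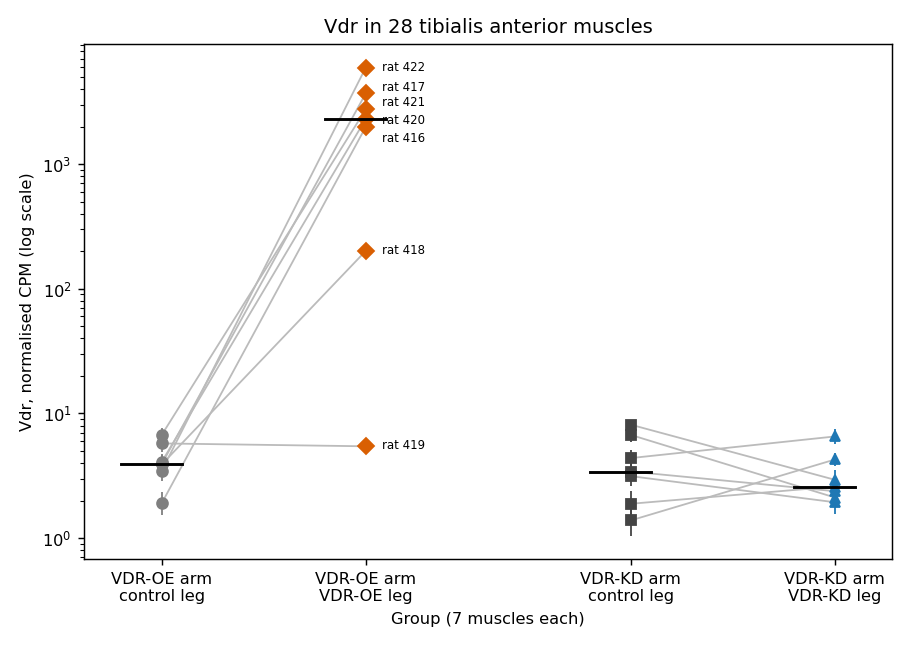
Vdr as normalised CPM on a log axis in 28 muscles of 4 groups of 7; each point is a muscle with its 95% Poisson interval, grey lines join the legs of a rat and black bars mark group medians. Of the VDR-OE legs, 5 lie between 1986 and 5938 CPM, rat 418 lies at 201 and rat 419 at 5.45, while VDR-KD legs lie among their controls.

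The nuclear receptors and vitamin D genes that had a symbol were described alongside Vdr. Nr1i3, the constitutive androstane receptor that is best known from liver, was near or at the detection limit without the construct, with 0 to 9 reads per muscle in the 21 muscles. In VDR-OE legs it stood at 36.7 CPM in rat 416, 65.6 in rat 417, 4.38 in rat 418, 0.0646 in rat 419, 39.7 in rat 420, 59.0 in rat 421 and 112 in rat 422. The 7 muscles had the same order in Nr1i3 as in Vdr, and the muscle of rat 419, with 3 reads, lay in the range of the controls. Whether the reads counted on Nr1i3 in these legs came from that gene or from the construct was not tested. Nr1i3 had too few reads elsewhere to enter the filter used for the tests.

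Esr2, an oestrogen receptor, stayed at 0 to 33 reads per muscle in all 28 muscles and was not tested either. Rara, a retinoic acid receptor, had a slope on Vdr of -0.03 log2 units per doubling of Vdr CPM (SE 0.08, unadjusted p = 0.69, edgeR quasi-likelihood adjusted p = 1) and was at 19.2 to 26.9 CPM in VDR-OE control and 20.2 to 32.9 CPM in VDR-KD control muscles.

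Of the vitamin D genes, only Dhcr7 and Pdia3 had a symbol beside Vdr. Dhcr7 reduces the sterol that is also the precursor of vitamin D3, and Pdia3 is a protein disulphide isomerase proposed as a membrane receptor for calcitriol. Dhcr7 stood at 2.08 to 3.28 CPM (median 2.68) in VDR-OE control and 2.25 to 5.96 (median 4.46) in VDR-KD control muscles, and Pdia3 at 86.3 to 150 (median 101) and 101 to 202 (median 177). Their slopes on Vdr were -0.18 (SE 0.13, unadjusted p = 0.169) and -0.09 (SE 0.12, unadjusted p = 0.495), neither past the threshold. Over all 7 legs labelled VDR-OE, including that of rat 419 with Vdr at the control level, Dhcr7 was higher than in control legs by 0.63 on the log2 scale (SE 0.12, edgeR quasi-likelihood adjusted p = 0.0282) and Rara by 0.41 (SE 0.06, adjusted p = 0.0183), while Pdia3 (0.50, SE 0.13, adjusted p = 0.0512) did not pass. Without rat 419 the differences were 0.67 (adjusted p = 0.0542) for Dhcr7, 0.40 (adjusted p = 0.0457) for Rara and 0.48 (adjusted p = 0.102) for Pdia3, in a comparison in which 1.45% of 14395 genes passed. The supplement from which symbols were taken lists genes by the authors' own results for these VDR-OE legs, so these calls are not independent of the choice of genes.

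The spread of Vdr between control legs of different rats, all injected and electrotransferred, was then used to ask which genes vary with it. Rat, muscle and library cannot be told apart in this spread. For each gene the slope of its log2 level on log2 Vdr CPM was fitted over the 14 control legs, 1 per rat, with a term for the arm. A slope of 1 means that a gene doubles where Vdr doubles. Of 14457 genes, 0 (0%) passed an adjusted p of 0.05 with edgeR's quasi-likelihood test, in either direction. An unadjusted p under 0.05 was reached by 412 genes (2.85%), 211 with a positive and 201 with a negative slope. The likelihood ratio test also called 0, and DESeq2 called 1 gene, which had no symbol.

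Of the 1872 genes with a symbol, 0 passed and 79 (4.22%) had an unadjusted p under 0.05, 41 with a positive and 38 with a negative slope. Slopes were positive for 900 and negative for 972 of them, which is 48.1% positive against 49.4% of all genes. The median slope was -0.0068, and the median SE of a slope 0.12. In 576 (30.8%) the correlation with Vdr had the same sign in each of the 3 groups without the construct, against 28.8% of all genes tested. The shares of positive slopes and of shared signs lay near those of all genes. The 576 split into 226 rising and 350 falling with Vdr, against 2210 and 1958 of all genes tested. The 4.22% with an unadjusted p under 0.05 stood against 2.85% of all genes. Permutation of Vdr within arms, in 100000 resamples, gave the same count, with 0 of 1872 Pearson correlations past a p of 0.05 adjusted over all genes tested and 69 with an unadjusted p under 0.05.

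With all 21 muscles in the fit, 7 of which are second legs of the same rats, again 0 of 14896 genes (0%) passed, and 855 had an unadjusted p under 0.05 (5.74%). The slope was not shown to differ between the arms for any single gene (interaction term, edgeR quasi-likelihood, 0 of 14457 past the threshold). However, 1112 genes had an unadjusted p under 0.05 for this term (7.69%), a larger share than the 2.85% for the slope itself. A slope shared by both arms was therefore not shown either. The genes below are therefore those that ordered most closely with Vdr in these muscles, and none is a call. Correlation coefficients given for them come from the same muscles by which they were chosen, so they are no separate support.

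The 10 positive slopes with the smallest p, among genes whose sign was shared by the 3 groups, belonged to Olfml2a, Fcgrt, Fgf11, Itm2a, Nid2, Ell2, Hsd11b1, Gprc5c, Ddn and Cyp2d4. Slopes ran from 0.22 (Ell2) to 0.63 (Ddn) per doubling of Vdr, unadjusted p from 0.000995 to 0.0172, and every adjusted p was 1. The Spearman rho over the 21 muscles, after centring within the 3 groups, ran from 0.42 (Cyp2d4) to 0.70 (Itm2a). It is a description, since muscles share rats and all values of a muscle share a library and its scaling.

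**Figure D2:**
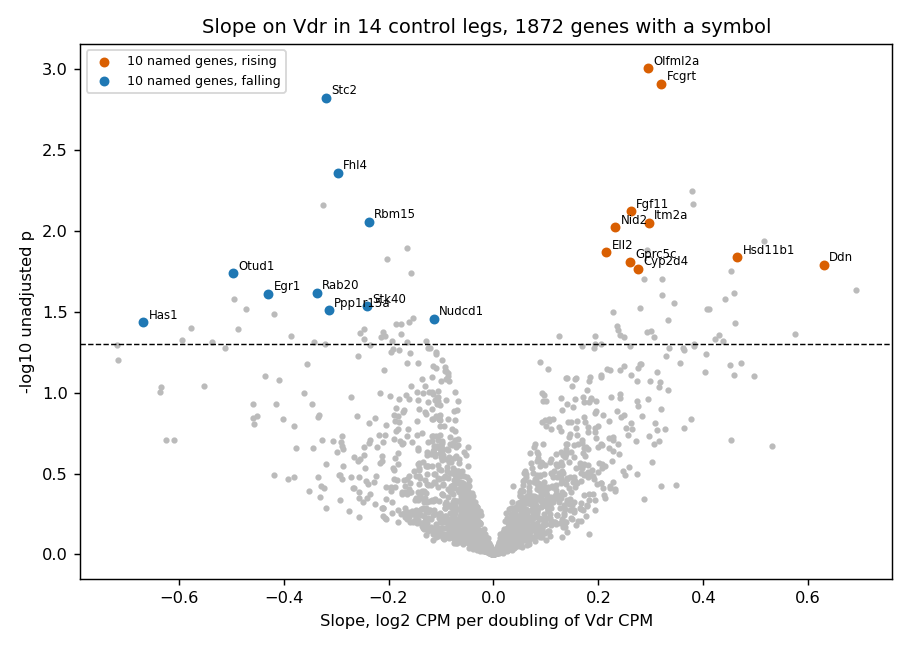
Slope on Vdr (log2 CPM per doubling of Vdr CPM) against -log10 of the unadjusted p in 14 control legs; each point is 1 of 1872 genes with a symbol, coloured points are the 10 named genes of each sign and the dashed line marks an unadjusted p of 0.05. Positive and negative slopes are about equally many, and no gene passed an adjusted p of 0.05.

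Olfml2a, which encodes an extracellular olfactomedin-like protein, stood at 21.6 to 36.3 CPM (median 28.5) in VDR-OE control, 27.1 to 44.8 (median 31.5) in VDR-KD control and 24.8 to 59.3 (median 31.3) in VDR-KD muscles. Its slope was 0.29 (SE 0.07, unadjusted p = 0.000995). The VDR-KD control legs of rats 424 and 425, the highest in Vdr of that group, held its highest values there (44.8 and 42.1 CPM), whereas the highest value of all, 59.3 CPM, was in the VDR-KD leg of rat 426 at a Vdr of 4.27 CPM. Pearson r in the 14 control legs was 0.77 (permutation p = 0.00286, adjusted over all genes tested p = 1) and rho 0.76 (permutation p = 0.00277, adjusted p = 1), and r without the legs of rats 425 and 426 was 0.74.

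Fcgrt, the neonatal Fc receptor that recycles antibodies and albumin, had a slope of 0.32 (SE 0.08, unadjusted p = 0.00124). It stood at 51.9 to 86.5 CPM in VDR-OE control and 62.8 to 131 CPM in VDR-KD control muscles. In VDR-KD muscles, at 66.2 to 129 CPM, it hardly ordered with Vdr at all (r = 0.03, 7 muscles, as a description). Whether the relation differed between control and VDR-KD legs was not tested.

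Itm2a, a membrane protein gene expressed in myogenic cells, was the most even of the 10 across groups. It stood at 215 to 403 CPM (median 307) in VDR-OE control, 277 to 535 (median 342) in VDR-KD control and 164 to 452 (median 294) in VDR-KD muscles. Its slope was 0.30 (SE 0.10, unadjusted p = 0.00896), and r was 0.65, 0.69 and 0.72 in the 3 groups of 7, given as a description. In the VDR-KD arm the highest values, 535 and 452 CPM, came from muscles with a Vdr of 6.72 and 6.54 CPM.

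Hsd11b1, the enzyme that regenerates active glucocorticoid, had a slope of 0.47 (SE 0.17, unadjusted p = 0.0146) and stood at 16.2 to 69.7 CPM in VDR-OE control and 19.9 to 60.4 CPM in VDR-KD control muscles. Nid2, which encodes the basement membrane protein nidogen-2, had a slope of 0.23 (SE 0.08, unadjusted p = 0.00956). Ell2 encodes an elongation factor of RNA polymerase II, Fgf11 an intracellular fibroblast growth factor homologue, Gprc5c an orphan G protein-coupled receptor, Ddn dendrin and Cyp2d4 a cytochrome P450. Their slopes were 0.22, 0.26, 0.26, 0.63 and 0.28. That of Ddn was 0.42 without rat 425, and within the VDR-KD arm with the rat as a block that of Ell2 was 0.02.

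The 10 negative slopes with the smallest p belonged to Stc2, Fhl4, Rbm15, Otud1, Rab20, Egr1, Stk40, Ppp1r15a, Nudcd1 and Has1. Slopes ran from -0.67 (Has1) to -0.11 (Nudcd1), unadjusted p from 0.00151 to 0.0369, and every adjusted p was 1. The Spearman coefficient over the 21 muscles ran from -0.68 (Rbm15) to -0.31 (Otud1).

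Stc2, which encodes the secreted glycoprotein stanniocalcin-2, stood at 4.66 to 8.14 CPM (median 6.00) in VDR-OE control, 3.11 to 6.6 (median 4.99) in VDR-KD control and 3.38 to 6.16 (median 4.42) in VDR-KD muscles. Its slope was -0.32 (SE 0.08, unadjusted p = 0.00151). Both control groups had their highest Stc2 in the leg with the least Vdr, 8.14 CPM in rat 416 and 6.6 CPM in rat 426. Stc2 was 3.11 CPM in rat 425, the leg with the most Vdr. In VDR-KD muscles r was -0.04, and whether the relation differed from that in control legs was not tested.

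Fhl4, a LIM domain gene, stood at 1.98 to 3.67 CPM (median 2.71) in VDR-OE control, 1.69 to 3.42 (median 2.71) in VDR-KD control and 1.55 to 2.91 (median 2.38) in VDR-KD muscles. Its slope was -0.30 (SE 0.09, unadjusted p = 0.0044), and r was -0.73, -0.81 and -0.72 in the 3 groups. Its Pearson r in the 14 control legs was -0.77 (permutation p = 0.00343, adjusted over all genes tested p = 1), with a rho of -0.70 (permutation p = 0.0147, adjusted p = 1) and an r of -0.70 without the legs of rats 425 and 426. Fhl4 lay lowest of all 21 muscles in the VDR-KD leg of rat 423, the leg of its group with the most Vdr.

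Rbm15, an RNA-binding subunit of the complex that writes N6-methyladenosine, had a slope of -0.24 (SE 0.08, unadjusted p = 0.0088) at 13.2 to 15.9 CPM in VDR-OE control and 10.7 to 21.3 CPM in VDR-KD control muscles. Egr1, an immediate early transcription factor, had a slope of -0.43 (SE 0.17, unadjusted p = 0.0245), and Ppp1r15a, which directs the phosphatase that reverses eIF2alpha phosphorylation, -0.31 (SE 0.13, unadjusted p = 0.031). The slope of Egr1 was -0.22 without rat 416 (unadjusted p = 0.196) and -0.09 within the VDR-KD arm with the rat as a block. Without rat 426 the slope of Otud1, a deubiquitinase, went from -0.50 to -0.18 and that of Rbm15 to -0.16. Rab20 encodes a small GTPase, Stk40 a pseudokinase, Nudcd1 a NudC domain protein and Has1 a hyaluronan synthase, with slopes of -0.34, -0.24, -0.11 and -0.67. Has1 was scarce, at 0.0563 to 1.36 CPM in the control legs.

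**Figure D3:**
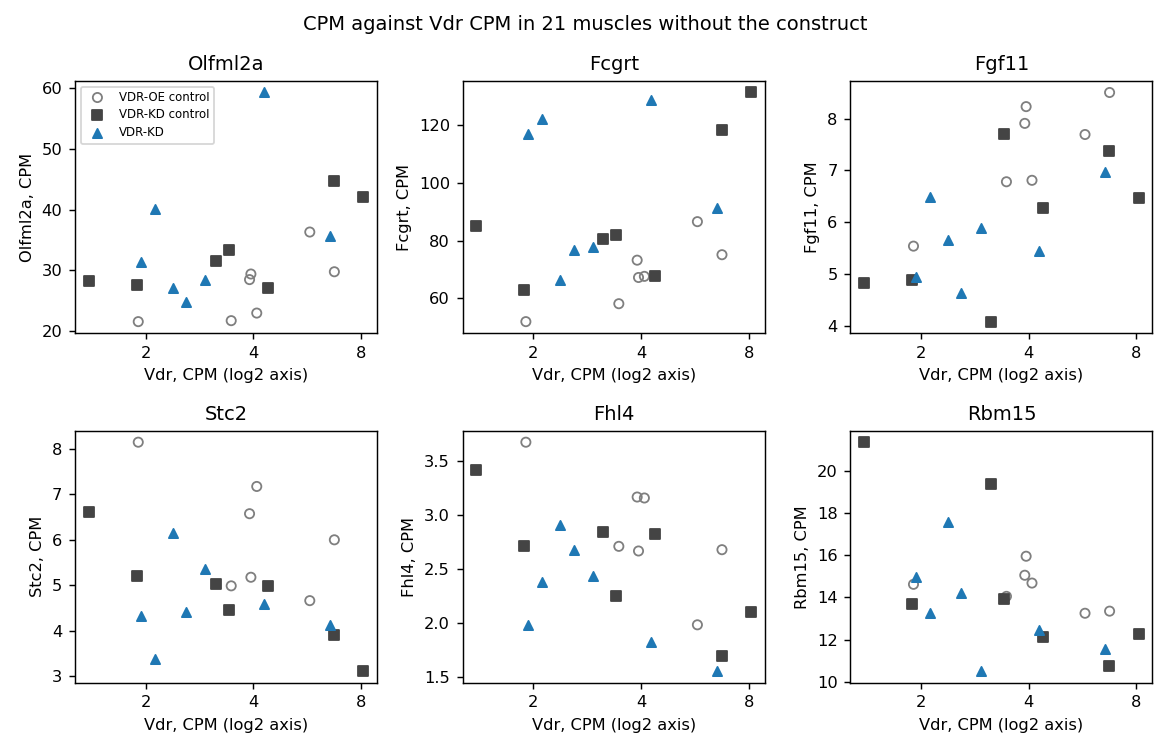
Normalised CPM of 6 genes against Vdr CPM (log2 axis) in the 21 muscles without the construct, marked by group; the upper row shows the 3 positive and the lower row the 3 negative slopes with the smallest p under the naming rule. Fcgrt and Stc2 order with Vdr in the control legs, by whose slopes they were chosen. In VDR-KD muscles r is 0.03 and -0.04, and whether the relation differs between these legs was not tested.

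The leg comparisons gave these genes values of their own. The VDR-OE comparison shares its 7 control legs with the slopes, and its 7 legs labelled VDR-OE include that of rat 419, so the values stand side by side only. Of the 20 genes, 12 passed the threshold between VDR-OE and control legs, 5 higher and 7 lower, against 7.14% of all genes, but the supplement that gave the symbols lists genes by the authors' results for these legs. Between VDR-OE and control legs, the log2 difference was 0.40 (adjusted p = 0.0345, edgeR quasi-likelihood) for Olfml2a, 0.38 (adjusted p = 0.0282) for Fcgrt, 0.43 (adjusted p = 0.0602) for Itm2a and -0.31 (adjusted p = 0.0852) for Fgf11. For Stc2 it was -0.52 (adjusted p = 0.0403), for Fhl4 -0.63 (adjusted p = 0.0403), for Rbm15 -0.34 (adjusted p = 0.0267) and for Has1 1.65 (adjusted p = 0.0408). The others past the threshold were Hsd11b1 (0.47), Ddn (1.06), Rab20 (-0.45), Stk40 (-0.44), Ppp1r15a (-0.77) and Nudcd1 (-0.35). The sign was opposite to that of the slope for Has1, Fgf11, Ell2 (-0.28, adjusted p = 0.0606) and Egr1 (0.87, adjusted p = 0.0758). Without rat 419, 1 of the 20 passed, Stc2 at -0.62 (adjusted p = 0.0456), against 1.45% of all genes. Between VDR-KD and control legs none of the 20 genes passed the threshold, with log2 differences from -0.31 (Gprc5c, SE 0.13, unadjusted p = 0.0362) to 0.39 (Egr1, SE 0.26, unadjusted p = 0.172).

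Gene groups were described by the sign of their members' slopes in the 14 control legs. Over all genes tested 49.4% of slopes were positive, with a median of -0.0015. The members all had a symbol, and the supplement lists genes by the authors' results for the VDR-OE legs, a comparison that shares control legs with the slopes. The lists were also chosen with earlier results of these data known. All genes tested are therefore not a neutral background for these groups. In none of the 17 groups did a member pass the threshold. Members of a group vary together from muscle to muscle, so their counts are not independent observations. In bulk muscle, fewer cells of a type and less RNA per cell cannot be told apart.

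Genes of fibroblasts and matrix leaned to positive slopes, in 51 of 59 members (median 0.14). Efemp1, a fibulin of the extracellular matrix, had a slope of 0.38 (SE 0.12, unadjusted p = 0.00567), but its slope over the 21 muscles was 0.18 (unadjusted p = 0.22), and its r within VDR-KD muscles was -0.47, as a description. Nid2 had the next smallest p. Without rat 425, the leg with the most Vdr, 37 of 59 were positive and the median was 0.03, and without rat 419 it was 0.07 and without rat 426 0.28. Within the VDR-KD arm, with the rat as a block and a term for the leg, 56 of 59 were positive. Over the 21 muscles with the rat as a random effect 42 of 59 were positive (median 0.08), and within the 7 VDR-KD muscles alone the median r of these genes with Vdr was -0.0078. The summed level of these genes ranged from 3910 to 10000 CPM in VDR-OE control, 6460 to 15800 in VDR-KD control and 6330 to 17600 in VDR-KD muscles, and its part in the level of Vdr was not tested.

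Genes of the integrated stress response, which slows translation under amino acid or protein-folding stress, leaned the other way, with negative slopes in 24 of 27 (median -0.17), led by Stc2 and Ppp1r15a. Computed on library totals in place of TMM scaling, Vdr gave negative slopes in 16 of 27, with a median of -0.02. Without rat 416, the VDR-OE control leg with the least Vdr, 21 of 26 were negative and the median was -0.05, and without rat 424 it was -0.11. Aminoacyl-tRNA synthetases had negative slopes in 15 of 16 (median -0.08), with Tars at -0.11 (SE 0.06, unadjusted p = 0.0972) and Eef1e1, a partner of the synthetase complex, at -0.12 (SE 0.07, unadjusted p = 0.0987). Genes of ribosome biogenesis had negative slopes in 31 of 33 (median -0.06), with Grwd1 at -0.09 (SE 0.05, unadjusted p = 0.0737) and Pno1 at -0.12 (SE 0.06, unadjusted p = 0.0804). Without rat 416, negative slopes numbered 13 of 16 synthetases (median -0.05) and 26 of 33 ribosome biogenesis genes (median -0.03), and without rat 421 the medians were -0.12 and -0.09. Ribosomal proteins lay on both sides, 3 positive and 5 negative, with Rplp1 at -0.05 and Rps25 at -0.03.

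Markers of immune cells and of dividing cells gave no stable direction. Macrophage genes had 15 positive and 13 negative slopes, T cell genes 7 and 8, antigen presentation genes 5 and 4, and cell cycle genes 23 and 27. These counts pool arms of opposite sign. As a description, the median r with Vdr in VDR-OE control and VDR-KD control legs was -0.402 and 0.297 for macrophage genes. It was -0.581 and 0.389 for T cell, -0.605 and 0.523 for antigen presentation, and -0.208 and 0.113 for cell cycle genes. In VDR-KD muscles the median r was -0.461 for macrophage, -0.658 for T cell, -0.581 for antigen presentation and -0.406 for cell cycle genes. Without rat 425 the positive slopes numbered 3 of 28 macrophage, 0 of 15 T cell and 6 of 50 cell cycle genes, whereas without rat 416 they numbered 24, 15 and 40. The lowest p in these groups belonged to Gpnmb (slope -0.59, SE 0.27, unadjusted p = 0.0476) among macrophage genes, Cd4 (0.17) and Tbx21 (-0.14) among T cell genes, Tap2 (-0.19) and RT1-Db1 (0.21) among antigen presentation genes, and Gins1 (-0.13) and Mybl2 (-0.26) among cell cycle genes. The summed level of 28 macrophage genes ranged from 332 to 1280 CPM in VDR-OE control, 745 to 2760 in VDR-KD control and 676 to 4010 in VDR-KD muscles, and that of 16 T cell genes from 27.1 to 132, 62.5 to 256 and 54.5 to 345. Their part in the level of Vdr was not tested.

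In the myogenic and regeneration group 6 of 12 slopes were positive (median 0.04), with Itm2a and the receptor gene Fgfr4 (0.19, SE 0.09, unadjusted p = 0.0445) having the smallest p. Genes listed as neuromuscular and nerve had 7 of 7 negative slopes (median -0.07). Gadd45a, which is also a stress response gene, and Scn7a were each at -0.22. Within the VDR-KD arm with the rat as a block, however, 3 of the 7 listed genes were negative. Leaving out single rats moved their median between -0.23 without rat 425 and -0.03 without rat 426. Endothelial and mural genes had 6 of 8 positive slopes, with Notch3 at 0.13 and Actg2 at -0.26, but 3 of 8 without rat 416. Mast cell genes (2 of 3 positive, Cma1 0.15, Cpa3 0.15), adipocyte genes (3 of 3, Elovl5 0.06, Acly 0.06) and glycogen genes (4 of 8, Gbe1 -0.11, Gsk3b -0.05) had few members with a symbol. Without rat 425, 0 of 3 adipocyte genes had a positive slope.

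**Figure D4:**
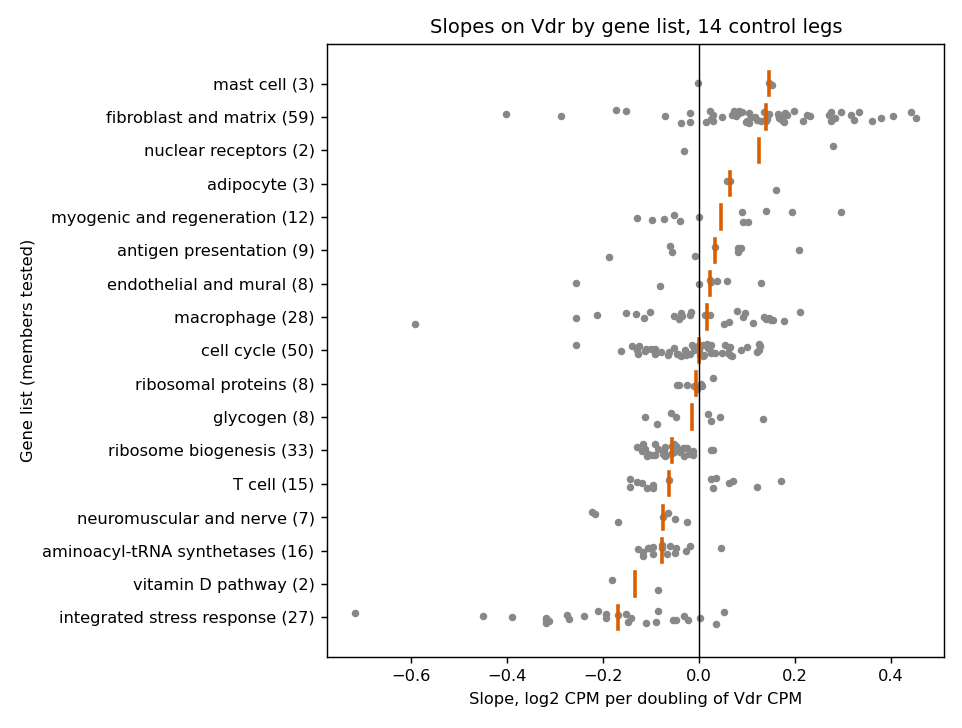
Slopes on Vdr (log2 CPM per doubling of Vdr CPM) of the members of 17 gene groups in 14 control legs; each grey point is a gene, orange bars are medians and the numbers in brackets are members tested. Fibroblast and matrix genes lie mostly to the right of 0 (51 of 59) and integrated stress response genes to the left (24 of 27), and none passed an adjusted p of 0.05.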

How the data were processed

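Per the labels and the study's methods, the authors ran paired-end sequencing (75 bp), used trimmomatic for trimming and Rsubread for alignment and counting on the rat genome (Rnor 6.0, Ensembl release 89); the submitters' processing notes also name bcl2fastq 2.17.1.14, FastQC 0.11.5 and edgeR 3.18.1. They deposited raw counts per gene and muscle. Members and gene lists were chosen with earlier results of these data known.

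A gene entered a fit if 7 or more muscles held more CPM than 10 reads give in the median library (0.244 CPM in the 14 control legs). Tests used edgeR 4.0.16 in R 4.3.3 (TMM scaling, quasi-likelihood test, Benjamini-Hochberg adjustment over all genes tested), with a prior count of 0.5 for log2 CPM. The likelihood ratio test of the study's methods was kept as an alternative, because on simulated data it made more false calls than the quasi-likelihood test, which itself ran slightly over the threshold in some comparisons. Further alternatives used limma 3.58.1 and DESeq2 1.42.0. Permutation tests were two-sided and exact, or used 100000 resamples within arms for 14 legs (SciPy 1.17.1, NumPy 2.4.6). Muscles came from separate rats within each group.

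Legs were paired by the animal number in the labels, so leg comparisons held the animal as a block. Deviations from the group means had a mean correlation over genes of 0.24 between legs of one rat in the VDR-OE arm and -0.10 in the VDR-KD arm (-0.04 and 0.02 between rats).

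Symbols came only from the 1998 genes that the supplement pairs with an identifier, a set chosen by the authors on the VDR-OE legs; 1812 were usable names. Named genes were Vdr, the 10 slopes of each sign with the smallest p among those of 1 sign in the 3 groups without the construct, the 2 with the smallest p of each list, and each member with a symbol of the nuclear receptor and vitamin D lists. A few genes that this rule names are not reported here. The authors' fold changes and p-values were not used. The promoter sequence is RefSeq's on GRCr8. The shRNA sequence was not used here.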

Additional observations from a re-analysis of the deposited data

Results flagged for a closer look

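The leg difference of Vdr differed between the arms, by 7.961 on the log2 scale (VDR-OE arm minus VDR-KD arm, exact two-sample permutation test, two-sided p = 0.00233, 7 rats in each arm). In 6 of 7 rats of the VDR-OE arm Vdr was higher in the right leg by at least 5.68 on the log2 scale, and rat 419 differed by -0.08. In the VDR-KD arm 3 of 7 rats were higher in the right leg.

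Otud1 stood at 28.6 CPM in the VDR-KD control leg of rat 426, the leg with the least Vdr, while the next highest leg of that group stood at 12 CPM. The gap made up 0.589 of the group's whole range on the log2 scale, past Dixon's 95% critical value of 0.568 for 7 samples. It was the only value past it among 82 groups of 7 checked, of which chance passes about 5%.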

How the results depend on the processing

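The difference in Vdr between VDR-OE and control legs (8.519 on the log2 scale) kept its direction in all 14 alternatives. Without the replicate block it was 9.156, and with all 28 muscles and the replicate block 8.532, both past the threshold, so the block changed no call here. Leaving out single rats gave 8.049 to 9.149. The call was lost without rat 417 (8.208), 418 (9.044), 420 (8.37) or 421 (8.479), and kept without rat 416, 419 or 422.

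For VDR-KD against control legs (-0.2554) no alternative reached the threshold or turned the sign. The value was -0.3562 with no replicate block, -0.2645 with all 28 muscles, and -0.5558 to -0.01357 leaving out single rats. Between the control legs of the 2 arms (0.02721) leaving out single rats gave -0.125 to 0.2841, never past the threshold.

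The numbers of genes with a symbol called with a positive or a negative slope were 0 and 0 in all 26 alternatives, which included DESeq2, other scalings and filters, Vdr on library totals or as ranks, no arm term, 21 muscles with the replicate block as a random effect (consensus correlation -0.225), the VDR-KD arm with the replicate block, and each rat left out. Genes with a symbol at an unadjusted p under 0.05 numbered 18 positive and 11 negative without rat 424, and 89 and 19 without rat 426. The signs of the 20 named slopes did not turn in any of these fits, but the sign of each was part of how they were chosen.

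A fit of the VDR-OE arm without rat 419 was added for the named genes after seeing the data. It turned no sign, and of the named genes past the threshold over 7 rats, beside Vdr, Rara and Stc2 kept the call.

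With 54 to 418 reads of Vdr per muscle, counting error was small beside the spread between muscles. Few of the genes tested had a symbol.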
